A study of Ovis aries with 10 samples.

Results

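Genes of motile cilia were described in the mediobasal hypothalamus, the ventral block of the hypothalamus around the floor of the third ventricle, of adult Ile-de-France ewes. Members were taken by name and not by a cut on measured values, though earlier results of these data were known when the rule was set. They were the DNAH, DNAI, RSPH, numbered CFAP and TEKT genes of the count table, with FOXJ1, CCDC153 and TMEM212. They numbered 66 of 33775 genes: 13 DNAH, 5 DNAI, 6 RSPH, 34 CFAP and 5 TEKT genes and the 3 single genes. RNA came from 20 ewes, 10 labelled as follicular phase, the part of the ovarian cycle before ovulation, and 10 as luteal phase, when the corpus luteum secretes progesterone. Each of the 5 libraries per phase held RNA of 2 ewes of that phase, mixed at random in equal amounts, so a library's value is an average of 2 animals. The phases were compared as labelled, with no hormone level, and the labels name no treatment, allele or agent in either phase.

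Motile cilia are beating hairs built on an axoneme, a ring of microtubule doublets around a central pair of microtubules. Outer and inner dynein arms slide the doublets, radial spokes pass signals from the central pair to the arms, and tektins line the inside of the doublets. FOXJ1 is the transcription factor that switches on the axonemal genes, together with RFX factors. In the brain these genes mark the ependyma, the ciliated cell layer that lines the ventricles and moves cerebrospinal fluid, and tufted cilia are also found on the choroid plexus.

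The libraries held 20644992 to 43193449 reads on genes in the follicular phase and 28571863 to 42358557 in the luteal phase, of which 31581 to 58956 per library fell on the members. Values are CPM, a gene's reads scaled to a common library total, and ± gives the SD over the 5 libraries of a phase. CPM are not divided by transcript length, so they compare one gene between libraries and not 2 genes with each other. Fold changes are luteal over follicular on the log2 scale, from the quasi-likelihood F-test of edgeR fitted to all 18276 genes that passed the filter on low counts. The Benjamini-Hochberg adjustment ran over those genes, with a threshold of 0.05. The libraries spread along a first principal component that held 51.0% of the variance of all tested genes. On it luteal 5, follicular 5 and luteal 3 lay at one end (58.2, 48.1 and 47.7) and follicular 3, 1 and 4 at the other (-61.6, -53.2 and -35.8). Follicular 1 and 3 were also the shallowest libraries. The component overlapped with phase, as its 3 lowest libraries were all follicular and luteal 5 and 3 were among its highest. A fit with the component as a term can therefore remove part of a phase difference.

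Reads of motile cilia genes were present in every library, and no member passed the adjusted threshold between the phases. Of the 66 members 62 could be tested, and edgeR called 0 of them, as it called 0% of all genes tested. DESeq2 and limma-voom also called 0 members, where DESeq2 called 0.159% of all genes. Of the tested members 32 averaged higher and 30 lower in luteal libraries, and the median log2 fold change was 0.01, equal to that of all tested genes (0.01). An unadjusted edgeR p under 0.05 was reached by 4 members, or 6.45%, against 11.4% of all genes tested. CFAP74 was the 1 that averaged higher in luteal libraries, against 4.27% of all genes on that side. CFAP298, CFAP36 and RSPH14 averaged lower, against 7.12% of all genes. The 5 luteal values lay wholly above or wholly below the 5 follicular values in 0 members, against 1.12% of all genes, 0.607% above and 0.514% below. Fewer ependymal cells in a block and less RNA per ependymal cell cannot be told apart in these mixed libraries.

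The precision limited what could have been seen. The standard error of the members' log2 fold changes ran from 0.09 to 0.57 with a median of 0.19. The 95% interval from that error lay within a 2-fold change in either direction for 58 of 62 members and within a 1.5-fold change for 33. The 4 whose intervals reached a 2-fold change were DNAI4, CFAP58, CFAP44 and RSPH14. These intervals are not adjusted for the number of genes tested, so they do not mark the smallest change that could have been called. The intervals of CFAP298 (-0.61 to -0.10) and CFAP36 (-0.87 to -0.11) excluded 0, and neither gene was called. Their edgeR adjusted p of 0.426 was the smallest of any gene, at 5 libraries per phase.

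**Figure D1:**
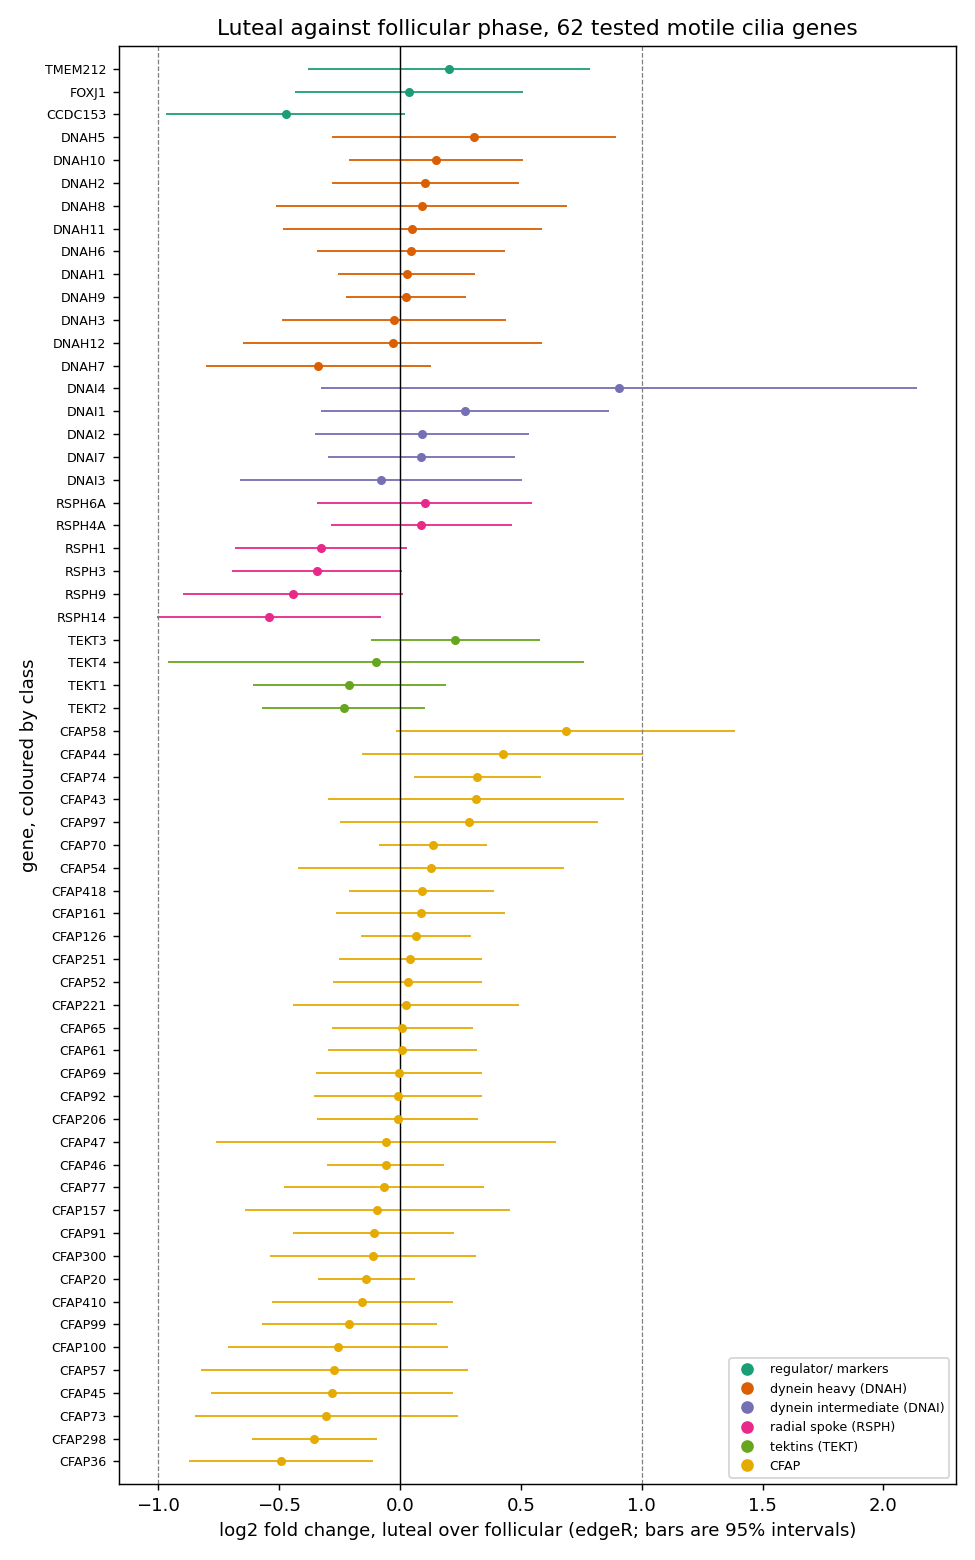
Log2 fold change of luteal over follicular (x axis) for each of the 62 tested motile cilia genes (y axis, coloured by class), with 95% intervals as bars and dashed lines at a 2-fold change. The points scatter on both sides of 0 with 32 higher and 30 lower, and the intervals of 58 genes stay within the dashed lines.

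The number of members with an unadjusted p under 0.05 depended on single libraries. Without follicular 5 it was 15, against 34.2% of all genes, and without follicular 1 and 3 together it was 2, against 3.23%. In both cases 0 members passed the adjusted threshold. Without follicular 1 and 3 the median log2 fold change of the members was 0.06, with 41 higher and 21 lower in luteal libraries.

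A score per library, the mean over the 62 tested members of log2 CPM centred on the 10 libraries, summarised the members in each mix. It was 0.15, 0.15, 0.02, -0.15 and -0.17 in follicular libraries 1 to 5. In luteal libraries 1 to 5 it was 0.09, 0.05, 0.05, -0.15 and -0.05. The follicular values enclosed the luteal ones, and the spread within a phase (SD 0.16 in follicular and 0.10 in luteal, n = 5 each) was larger than the difference of the phase means, 0.000194. Summed over the members, the level was 1477 ± 233 CPM in the follicular and 1290.4 ± 100.4 CPM in the luteal phase. Without 6 genes that many cell types use (CFAP20, CFAP36, CFAP97, CFAP298, CFAP410 and CFAP418) the sums were 917 ± 149 and 841 ± 65.7 CPM. Follicular 1 held the highest value of 16 of the 62 members (25.8%, against 11.6% of all genes) and follicular 5 the lowest value of 18 (29.0%, against 10.8% of all genes). Follicular 4 held the highest value of 1 member (1.61%, against 6.63% of all genes) and the lowest of 10 (16.1%, against 6.49%). Luteal 4 held the highest of 1 (1.61%, against 8.45%) and the lowest of 8 (12.9%, against 8.89%). Follicular 3 and luteal 5 each held the lowest of 10 (16.1%), against 19.3% and 17.6% of all genes.

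**Figure D2:**
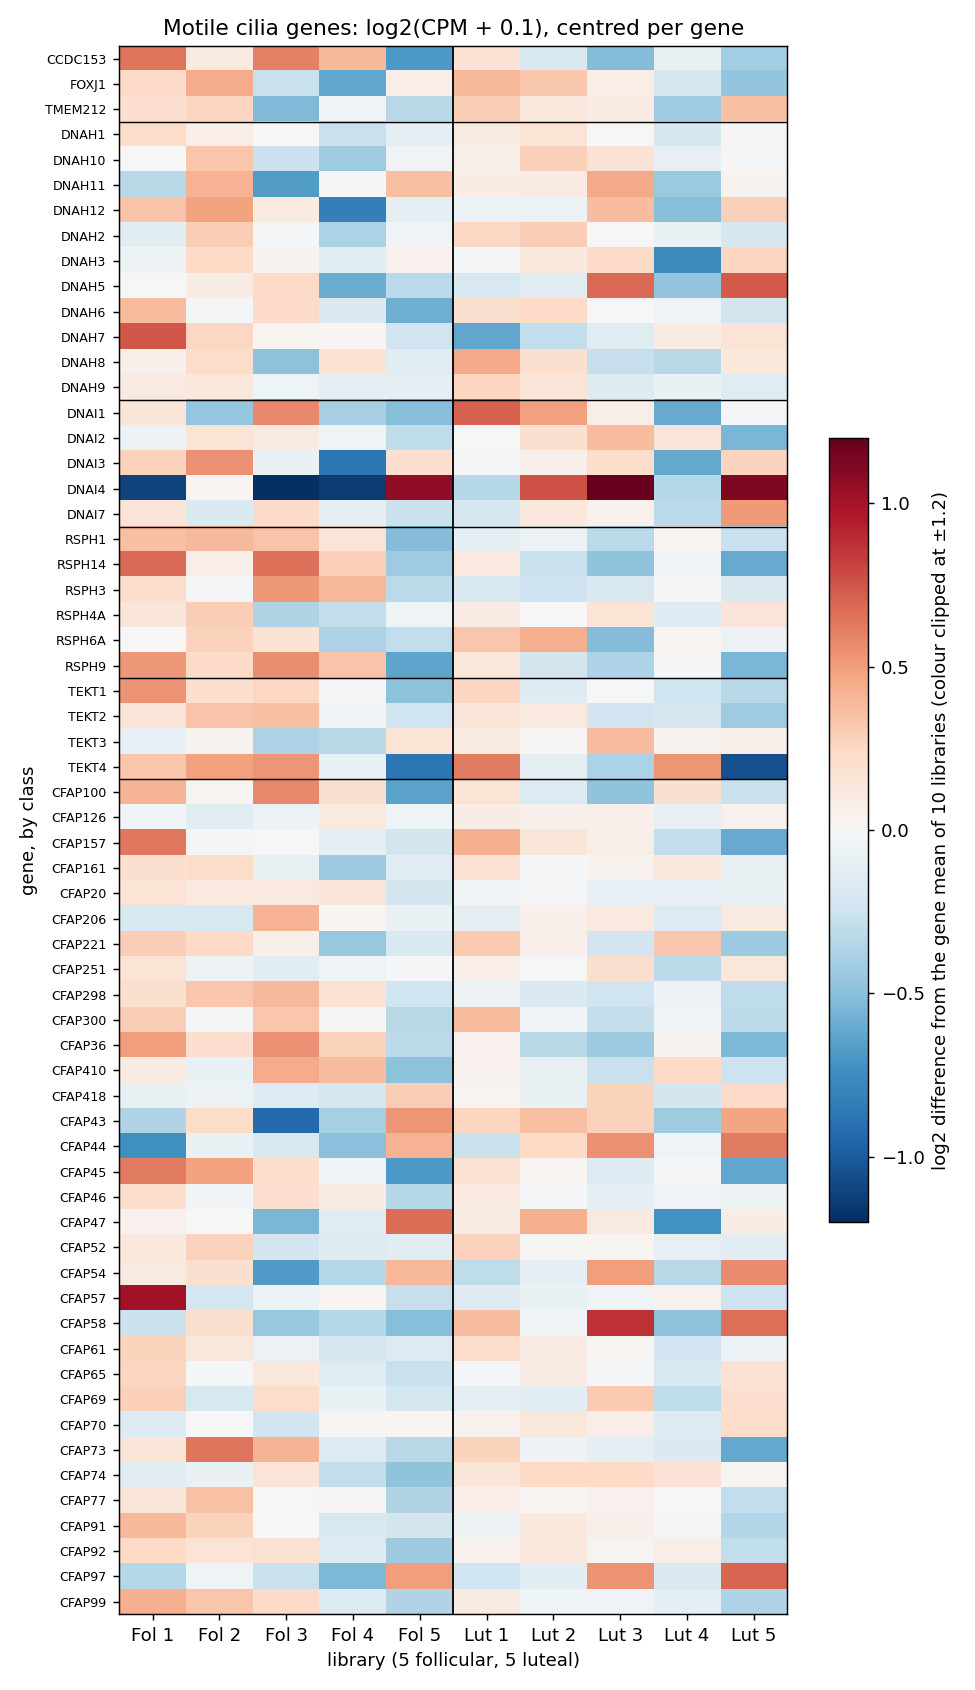
Log2(CPM + 0.1) of each tested motile cilia gene (rows, grouped by class) in each library (columns), centred on the gene's mean of 10 libraries, red higher and blue lower, with the colour clipped at ±1.2. No block of rows changes colour at the line between the phases. Follicular 5 is blue for CCDC153, RSPH9 and CFAP100, and red for DNAI4, CFAP43 and CFAP97.

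Ependymal genes that the rule did not use were set beside the members. All 14 such genes found in the table passed the filter, among them MIA and RARRES2, which are secreted, and ciliary genes such as DYNLRB2, AK7 and HYDIN. So did all 8 neuron, 9 astrocyte and 8 oligodendrocyte markers, and 18276 of all 33775 genes. Passing the filter therefore does not test whether the members are ependymal. MIA, a secreted protein listed among ependymal markers, ran from 42.95 to 48.2 CPM in follicular and from 39.98 to 46.4 CPM in luteal libraries. RARRES2, the precursor of chemerin, was at 184, 103, 208, 149 and 59.6 CPM in follicular and 134, 90.02, 73.7, 125 and 64.8 CPM in luteal libraries 1 to 5. MIA was even across the libraries, and RARRES2 was lowest in follicular 5 and luteal 5 and highest in follicular 3 and 1. Of the 14 genes 6 averaged higher and 8 lower in luteal libraries with a median log2 fold change of -0.08, and 0 were called. Genes of sperm were listed as a description. Those named here are not parts of the axoneme, so they do not test for reads from other axonemes. PRM2 and TNP1, which package sperm DNA, had 0 reads in the 10 libraries, PRM1 had 1, ODF1 of the sperm tail had 50, and AKAP4 of the sperm fibrous sheath averaged 12.4 ± 1.54 CPM in the follicular and 11.03 ± 0.982 CPM in the luteal phase. TSSK6, a sperm kinase, averaged 2.05 ± 0.433 CPM in the follicular and 2.70 ± 0.808 CPM in the luteal phase, and ZPBP, an acrosome protein listed as LOC101107693, 1.40 ± 0.266 CPM in the follicular and 2.12 ± 0.642 CPM in the luteal phase. Of these 3 tested sperm genes 2 averaged higher and 1 lower in luteal libraries, 0 were called, and 1 (ZPBP, log2 fold change 0.60, SE 0.26) had an unadjusted edgeR p under 0.05.

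The regulator FOXJ1 was at 36.1, 41.9, 25.5, 19.8 and 32.4 CPM in follicular libraries 1 to 5. In luteal libraries 1 to 5 it was at 40.4, 38.3, 32.5, 26.7 and 22.1 CPM. Both phases covered nearly the same range, with the lowest value in follicular 4 and the highest in follicular 2. The phase means were 31.1 ± 8.68 CPM in the follicular and 32.00 ± 7.68 CPM in the luteal phase, and the log2 fold change was 0.04 (SE 0.22, edgeR adjusted p = 0.933).

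CCDC153, a dynein regulatory complex protein and a standard marker of ependymal cells in single-cell atlases, was at 93.1, 64.1, 90.7, 78.2 and 36.9 CPM in follicular and 67.1, 52.1, 41.4, 55.8 and 44.6 CPM in luteal libraries 1 to 5. Follicular 1 and 3 were highest and follicular 5 was the lowest of all 10, below every luteal library, so the phases overlapped. Its log2 fold change was -0.47 (SE 0.23, edgeR adjusted p = 0.426), and -0.19 without follicular 1 and 3. With 1 library left out it ran from -0.64 to -0.37. TMEM212, a membrane protein also used as an ependymal marker, had few reads, 225 over the 10 libraries. It stood at 0.768, 0.807, 0.425, 0.637 and 0.501 CPM in follicular and 0.829, 0.725, 0.709, 0.465 and 0.871 CPM in luteal libraries, with overlapping phases and a log2 fold change of 0.20 (SE 0.27, edgeR adjusted p = 0.688).

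**Figure D3:**
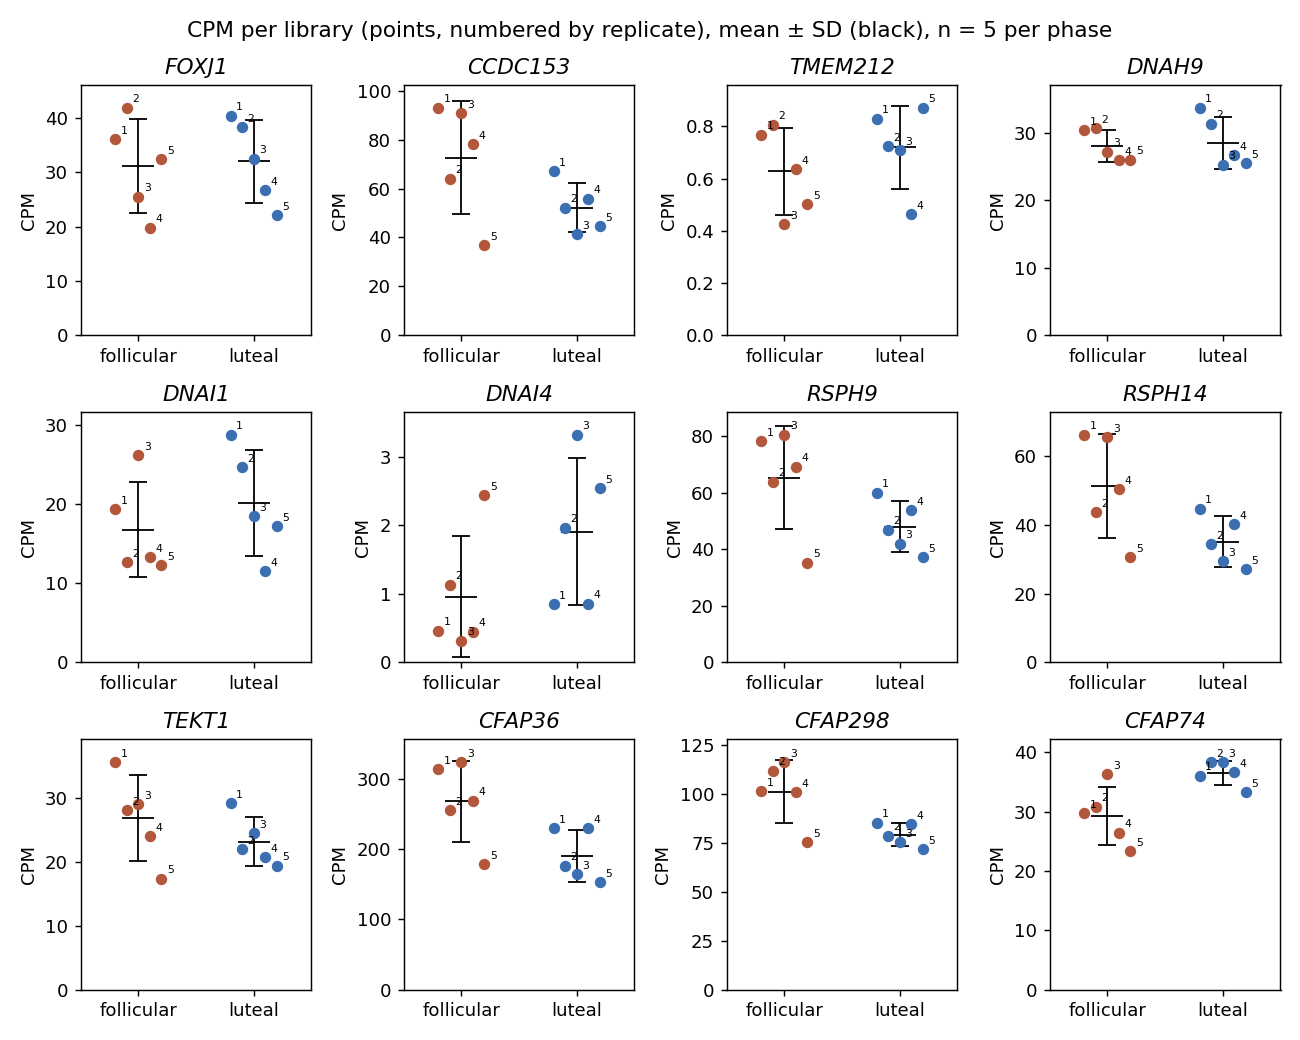
CPM of 12 motile cilia genes in each library (points numbered by replicate), with the phase mean and SD in black, follicular on the left and luteal on the right of each panel, n = 5 per phase and every axis from 0. The phases overlap in every panel, and follicular 5 lies below the other follicular libraries in CCDC153, RSPH9, RSPH14, CFAP36, CFAP298, TEKT1, DNAI1 and CFAP74 and above them in DNAI4.

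Dynein heavy chains are the motor subunits of the arms. Of 13 DNAH genes 11 could be tested. DNAH14, with 4 reads over the 10 libraries, and DNAH17, a heavy chain known from sperm, with 34 reads, fell below the filter. Of the 11 tested, 8 averaged higher and 3 lower in luteal libraries with a median log2 fold change of 0.04, and fold changes ran from -0.34 (DNAH7) to 0.31 (DNAH5). Their unadjusted edgeR p-values were 0.139 for DNAH7 and 0.278 for DNAH5.

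DNAH9, an outer arm heavy chain of motile cilia, had the highest CPM of the class, 30.4, 30.7, 27.2, 25.9 and 26.01 in follicular and 33.7, 31.4, 25.3, 26.7 and 25.5 in luteal libraries 1 to 5. Its libraries differed by at most 1.33-fold, and the phases overlapped fully. Its log2 fold change was 0.02 (SE 0.11, edgeR adjusted p = 0.921), with a 95% interval from -0.23 to 0.27. DNAH6, an inner arm heavy chain, averaged 16.1 ± 3.996 CPM in the follicular and 16.5 ± 2.09 CPM in the luteal phase, and DNAH1, another inner arm chain, 13.5 ± 1.75 CPM in the follicular and 13.8 ± 1.33 CPM in the luteal phase. DNAH5, another outer arm heavy chain, was at 5.99, 6.42, 7.06, 3.93 and 4.77 CPM in follicular and 5.24, 5.46, 9.67, 4.30 and 10.1 CPM in luteal libraries. Luteal 3 and 5 lay above the rest, while the other luteal values lay within the follicular range. DNAH7, an inner arm chain, averaged 10.4 ± 2.93 CPM in the follicular and 8.22 ± 1.75 CPM in the luteal phase, and DNAH11, of the outer arm, 3.73 ± 1.17 CPM in the follicular and 3.90 ± 0.851 CPM in the luteal phase.

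Dynein intermediate chains anchor the heavy chains to the doublets. All 5 DNAI genes were tested, of which 4 averaged higher and 1 lower in luteal libraries with a median log2 fold change of 0.09. DNAI1, an outer arm chain in which defects cause immotile cilia, was at 19.4, 12.7, 26.2, 13.3 and 12.3 CPM in follicular and 28.7, 24.7, 18.5, 11.5 and 17.2 CPM in luteal libraries 1 to 5. Luteal 1 was highest and luteal 4 lowest of all 10 libraries, so the spread within the luteal phase covered that of the follicular phase (log2 fold change 0.27, SE 0.27, edgeR adjusted p = 0.604). DNAI2, the partner of DNAI1 in the outer arm, averaged 2.76 ± 0.356 CPM in the follicular and 2.93 ± 0.658 CPM in the luteal phase. DNAI3, of the inner arms, averaged 3.36 ± 1.11 CPM in the follicular and 3.19 ± 0.704 CPM in the luteal phase. DNAI7, also assigned to the inner arms, averaged 11.1 ± 1.68 CPM in the follicular and 11.8 ± 2.76 CPM in the luteal phase.

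DNAI4 was the most variable of the tested members, with a coefficient of variation of 73.5% over the 10 libraries. The median was 20.6% over the tested members and 22.5% over all tested genes. It stood at 0.461, 1.14, 0.318, 0.449 and 2.44 CPM in follicular and 0.854, 1.97, 3.32, 0.856 and 2.54 CPM in luteal libraries. Luteal 3, luteal 5 and follicular 5 were the highest, the 3 libraries at the same end of the first principal component. The log2 fold change, 0.91 (SE 0.57, edgeR adjusted p = 0.451), was the largest among the members and rested on 527 reads in all. It ran from 0.63 without luteal 3 to 1.64 without follicular 5, and it was 0.48 without follicular 1 and 3 and 0.12 with the first principal component as a term.

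Radial spoke proteins link the central pair to the inner arms. Of the 6 RSPH genes 4 averaged lower and 2 higher in luteal libraries, with a median log2 fold change of -0.34 against 0.01 over all tested genes, and 0 passed adjustment. The median was -0.34 under RLE and -0.32 under upper-quartile scaling. With 1 library left out it ran from -0.46 (without follicular 5) to -0.27 (without follicular 3). Without follicular 5, 4 of the 6 RSPH genes had an unadjusted edgeR p under 0.05, against 34.2% of all genes. The median was -0.20 without follicular 1 and 3. It was -0.04 with the first principal component, which overlaps with phase, as a term in the model.

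RSPH14 was at 66.02, 43.5, 65.3, 50.3 and 30.5 CPM in follicular and 44.6, 34.3, 29.4, 40.1 and 27.03 CPM in luteal libraries 1 to 5, with a log2 fold change of -0.54 (SE 0.21, edgeR adjusted p = 0.426). RSPH9, a subunit of the spoke head, was at 78.1, 63.8, 80.4, 69.1 and 35.2 CPM and 59.96, 46.9, 42.02, 53.7 and 37.2 CPM (log2 fold change -0.44, SE 0.21, edgeR adjusted p = 0.426). In both, follicular 1, 3 and 4 were among the highest libraries, and follicular 5 lay among the lowest with luteal 3 and 5. Without follicular 1 and 3 the log2 fold changes were -0.24 for RSPH14 and -0.22 for RSPH9. With 1 library left out they ran from -0.68 to -0.43 for RSPH14 and from -0.60 to -0.36 for RSPH9.

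RSPH1, another head protein, was at 46.4, 47.3, 45.8, 40.5 and 25.1 CPM in follicular and 33.2, 34.4, 28.8, 36.9 and 29.95 CPM in luteal ones (log2 fold change -0.33, SE 0.16, edgeR adjusted p = 0.428). RSPH3, a spoke stalk protein, was at 15.9, 13.6, 19.7, 18.1 and 10.96 CPM and 12.1, 11.5, 11.99, 13.9 and 12.1 CPM (log2 fold change -0.34, SE 0.16, edgeR adjusted p = 0.426). In both genes 4 follicular libraries lay at or near the top, and follicular 5 was the lowest of all 10. The paralogues RSPH4A, the head protein of airway cilia, and RSPH6A, known from sperm, were both read. RSPH4A averaged 4.17 ± 0.821 CPM in the follicular and 4.44 ± 0.411 CPM in the luteal phase, and RSPH6A 8.61 ± 1.67 CPM in the follicular and 9.22 ± 2.299 CPM in the luteal phase. Their log2 fold changes were 0.09 (SE 0.17) and 0.10 (SE 0.20), on the other side of 0 from the other RSPH genes and within their errors of 0.

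Tektins are filaments inside the doublets. TEKT5 had 3 reads over the 10 libraries and was not tested. Of the other 4, 1 averaged higher and 3 lower in luteal libraries, and this split was 3 higher and 1 lower both without follicular 1 and 3 and with the first principal component as a term. TEKT1 was at 35.6, 28.1, 28.97, 23.97 and 17.4 CPM in follicular and 29.2, 21.97, 24.4, 20.7 and 19.4 CPM in luteal ones (log2 fold change -0.21, SE 0.18, edgeR adjusted p = 0.549), with follicular 1 highest and follicular 5 lowest. TEKT2 averaged 27.1 ± 4.71 CPM in the follicular and 23.1 ± 3.97 CPM in the luteal phase, and TEKT3 4.80 ± 0.788 CPM in the follicular and 5.65 ± 0.604 CPM in the luteal phase. TEKT4, one of the 4 most variable members above 1 CPM, ran from 0.52 to 1.54 CPM in follicular and from 0.45 to 1.66 CPM in luteal libraries.

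The CFAP genes are a mixed class, named for cilia and flagella. Products of many of them sit in the arms, the doublets, the regulatory complexes and the central pair, and others are used by many cell types. Of 34, all but CFAP299, with 77 reads over the 10 libraries, were tested. Of the 33 tested, 15 averaged higher and 18 lower in luteal libraries with a median log2 fold change of -0.01. CFAP36, CFAP46 and CFAP298 had the most reads of the class.

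CFAP36, a protein that binds the small GTPase ARL3 and is found in many cell types, was at 315, 256, 324, 269 and 179 CPM in follicular and 230.4, 177, 165, 229.7 and 153 CPM in luteal libraries 1 to 5. Follicular 1 to 4 lay above all luteal libraries, and follicular 5 lay within the luteal range. Its log2 fold change was -0.49 (SE 0.17, edgeR adjusted p = 0.426), and -0.30 without follicular 1 and 3. With 1 library left out it ran from -0.61 to -0.42. CFAP298, a factor in dynein arm assembly, was at 102, 112, 116, 101 and 75.5 CPM in follicular and 85.4, 78.7, 75.4, 84.7 and 71.8 CPM in luteal libraries, with the same arrangement. Its log2 fold change was -0.35 (SE 0.12, edgeR adjusted p = 0.426), and -0.28 without follicular 1 and 3. With 1 library left out it ran from -0.44 to -0.30.

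CFAP74, a central apparatus protein, was the member with the smallest p among those that averaged higher in luteal libraries. It stood at 29.7, 30.8, 36.3, 26.4 and 23.3 CPM in follicular and 36.1, 38.4, 38.3, 36.6 and 33.3 CPM in luteal libraries 1 to 5. Follicular 3 was the single follicular library inside the luteal range. The log2 fold change was 0.32 (SE 0.12, edgeR adjusted p = 0.426), and it was 0.45 without follicular 1 and 3. CFAP44, which tethers inner dynein arms, averaged 2.11 ± 0.699 CPM in the follicular and 2.86 ± 0.760 CPM in the luteal phase (log2 fold change 0.42, SE 0.27, edgeR adjusted p = 0.452), and CFAP58 0.566 ± 0.141 CPM in the follicular and 0.914 ± 0.357 CPM in the luteal phase (log2 fold change 0.69, SE 0.32, edgeR adjusted p = 0.426). Both were low, with 868 and 251 reads over the 10 libraries, and in both the phases overlapped.

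Several axonemal CFAP genes hardly varied between libraries. CFAP126, also called Flattop, was at 14.4, 13.4, 13.96, 15.96 and 14.2 CPM in follicular and 15.7, 15.3, 15.3, 13.7 and 15.3 CPM in luteal libraries, a coefficient of variation of 6.05%, the smallest of the tested members. CFAP20, a protein of the inner junction of the doublets that is also present in cells without motile cilia, varied by 9.01%, CFAP70, of the outer arm, by 9.71% and CFAP251, a radial spoke protein, by 10.5%. CFAP46 of the central apparatus averaged 115 ± 17.02 CPM in the follicular and 111 ± 6.77 CPM in the luteal phase, with a 95% interval of its log2 fold change from -0.30 to 0.18. At the other end CFAP57, an inner arm adaptor, was at 6.71, 2.82, 3.13, 3.37 and 2.70 CPM in follicular and 2.95, 3.11, 3.19, 3.42 and 2.75 CPM in luteal libraries. Its variation lay in follicular 1, and the other 9 libraries ran from 2.70 to 3.42 CPM.

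The members did not all take the same direction across the libraries. The 3 libraries at the upper end of the first principal component, luteal 5, follicular 5 and luteal 3, held the 3 lowest values of 12 members (19.4%, against 16.6% of all tested genes). These were CCDC153, RSPH1, RSPH9, RSPH14, TEKT2, TEKT4, CFAP45, CFAP46, CFAP100, CFAP298, CFAP300 and CFAP410. The same libraries held the 3 highest values of 5 members (8.06%, against 19.7% of all genes): DNAI4, CFAP44, CFAP54, CFAP97 and CFAP418. Of these, CFAP97 and CFAP418 are among the genes that many cell types use. At the other end, follicular 3, 1 and 4 held the 3 lowest values of 3 members (4.84%, against 13.2% of all genes). They held the 3 highest values of 6 members (9.68%, against 13.5%). CFAP97 was at 12.3, 15.04, 12.9, 10.7 and 22.2 CPM in follicular and 13.2, 14.2, 22.6, 13.8 and 25.4 CPM in luteal libraries 1 to 5, and CFAP100 at 74.2, 57.1, 83.4, 63.8 and 35.9 CPM and 62.6, 49.9, 40.1, 63.9 and 46.3 CPM. The library in which CFAP97 was highest of the follicular phase, follicular 5, was thus the one in which CFAP100 was lowest. These libraries were picked by their place on that axis, which was drawn from the same counts, so the shares are descriptions.

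Other genes of the ciliary pathway were taken from lists outside the rule, and edgeR called 0 of them after adjustment. Among regulators of multiciliated cells, 8 of 10 tested genes averaged higher and 2 lower in luteal libraries with a median log2 fold change of 0.14. MCIDAS and GMNC, which start the multiciliated programme in development, and CDC20B fell below the filter with 14, 54 and 18 reads. DEUP1, which builds the deuterosomes on which centrioles multiply, was at 3.79, 4.25, 2.12, 2.85 and 3.55 CPM in follicular and 5.46, 5.07, 6.73, 4.55 and 5.02 CPM in luteal libraries 1 to 5. Its luteal values lay above every follicular value, as for 0.607% of all tested genes, and its log2 fold change was 0.69 (SE 0.20, edgeR adjusted p = 0.426). RFX2, the partner of FOXJ1, averaged 25.1 ± 1.69 CPM in the follicular and 27.4 ± 1.60 CPM in the luteal phase.

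Of 14 dynein assembly factors 10 averaged higher and 4 lower in luteal libraries with a median of 0.20. DNAAF8 averaged 35.98 ± 5.14 CPM in the follicular and 43.3 ± 2.58 CPM in the luteal phase (log2 fold change 0.27, SE 0.11, edgeR adjusted p = 0.426), and DNAAF10 12.4 ± 1.82 CPM in the follicular and 15.4 ± 1.33 CPM in the luteal phase (log2 fold change 0.30, SE 0.13, edgeR adjusted p = 0.426). Of 8 docking and light chain genes 3 averaged higher and 5 lower (median -0.09), with ODAD4 at 12.4 ± 2.52 CPM in the follicular and 9.96 ± 1.19 CPM in the luteal phase and ODAD3 at 7.77 ± 2.01 CPM in the follicular and 6.08 ± 1.22 CPM in the luteal phase. Of 11 tested ruler and nexin-dynein regulatory complex genes 5 averaged higher and 6 lower (median -0.06), with CCDC40 at 13.8 ± 2.50 CPM in the follicular and 16.9 ± 2.44 CPM in the luteal phase and IQCD at 11.4 ± 2.09 CPM in the follicular and 9.02 ± 2.05 CPM in the luteal phase.

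The central apparatus list was split evenly, 5 higher and 5 lower (median 0.04). SPEF1, which bundles the central pair, was at 29.4, 26.3, 34.1, 33.9 and 20.9 CPM in follicular and 25.6, 20.2, 16.5, 23.6 and 17.3 CPM in luteal ones (log2 fold change -0.49, SE 0.17, edgeR adjusted p = 0.426). HYDIN, a large central pair protein whose loss causes hydrocephalus in mice, averaged 11.2 ± 2.29 CPM in the follicular and 13.4 ± 1.46 CPM in the luteal phase. Among 8 neighbours of the radial spokes 1 averaged higher and 7 lower (median -0.10). DYDC2 was at 27.7, 27.7, 28.1, 31.9 and 22.5 CPM in follicular and 27.4, 19.3, 18.2, 18.8 and 17.2 CPM in luteal ones (log2 fold change -0.45, SE 0.15, edgeR adjusted p = 0.426), with luteal 1 inside and the other luteal libraries below the follicular range, and NME5 averaged 1.58 ± 0.185 CPM in the follicular and 1.93 ± 0.276 CPM in the luteal phase.

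Of 12 microtubule inner proteins 5 averaged higher and 7 lower (median -0.04). PIERCE2, listed as C7H15orf65, averaged 1.47 ± 0.348 CPM in the follicular and 1.03 ± 0.234 CPM in the luteal phase, and EFHC2 3.57 ± 0.860 CPM in the follicular and 4.57 ± 0.728 CPM in the luteal phase. Intraflagellar transport, which carries material along motile and primary cilia alike, had 12 of 22 genes higher and 10 lower (median 0.02), with IFT43 at 50.7 ± 11.8 CPM in the follicular and 34.7 ± 6.52 CPM in the luteal phase and WDR19 at 33.2 ± 10.3 CPM in the follicular and 46.2 ± 11.7 CPM in the luteal phase. The primary cilium list, for the single non-motile cilium of neurons and glia, had 8 of 14 higher and 6 lower (median 0.10), with BBS4 at 117 ± 7.61 CPM in the follicular and 102 ± 6.30 CPM in the luteal phase and INPP5E at 37.6 ± 4.57 CPM in the follicular and 43.6 ± 3.59 CPM in the luteal phase. Across these lists the number of genes with an unadjusted p under 0.05 was 1 of 10 regulators, 2 of 14 assembly factors, 1 of 10 central apparatus, 1 of 8 spoke neighbours, 2 of 22 transport and 1 of 14 primary cilium genes. It was 0 for the docking, ruler and inner protein lists. Over all tested genes the share was 11.4%, close to that of most of these lists.

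Markers of the neighbouring cell types were set beside the ciliary score, and their part in the members' values was not tested. Of 10 tested choroid plexus markers 9 averaged higher in luteal libraries, against 51.5% of all tested genes. An unadjusted edgeR p under 0.05 was reached by 1 of them, against 11.4% of all genes. Their median log2 fold change was 0.56. It ran from 0.38 to 0.69 with 1 library left out and was 0.15 without follicular 1 and 3. With the first principal component as a term it was 0.40, and with the replicate number as a term 0.61. The choroid plexus score was -0.60, -0.29, -0.71, -0.16 and 0.35 in follicular libraries 1 to 5. In luteal libraries 1 to 5 it was -0.10, 0.31, 0.29, 0.72 and 0.20. It was highest in luteal 4, where the ciliary score was -0.15, and lowest in follicular 3 and 1, where the ciliary score was 0.02 and 0.15. The summed level of the 12 choroid plexus markers ran from 49.2 to 80.8 CPM in follicular and from 64.5 to 165 CPM in luteal libraries. The 165 CPM was that of luteal 4, and the other luteal libraries ran from 64.5 to 86.9 CPM. OTX2 and KCNE2 had 51 and 16 reads and were not tested. SLC4A5, a bicarbonate transporter of that epithelium, was at 1.43, 1.25, 0.637, 0.787 and 1.92 CPM in follicular and 2.56, 2.35, 3.03, 2.08 and 3.01 CPM in luteal libraries. Its luteal values lay wholly above the follicular ones, as for 0.607% of all tested genes (log2 fold change 1.09, SE 0.29, edgeR adjusted p = 0.426). TTR, the thyroid hormone carrier that choroid plexus secretes, averaged 27.5 ± 16.9 CPM in the follicular and 40.9 ± 31.8 CPM in the luteal phase, and AQP1, its water channel, 2.82 ± 2.63 CPM in the follicular and 5.76 ± 1.70 CPM in the luteal phase.

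Tanycytes, the ependymal cells of the third ventricle floor that mostly lack motile cilia, had a score between -0.22 and 0.21 over the 10 libraries. Of 10 tested markers 6 averaged higher and 4 lower in luteal libraries, with a median log2 fold change of 0.12. The summed level of the 11 markers was 1581 ± 79.1 CPM in the follicular and 1763 ± 165 CPM in the luteal phase. An unadjusted edgeR p under 0.05 was reached by 3 of the tested markers on the higher and 1 on the lower side, against 4.27% and 7.12% of all genes. DIO2, the enzyme that activates thyroid hormone, was the 1 on the lower side. It averaged 148 ± 20.3 CPM in the follicular and 94.7 ± 40.4 CPM in the luteal phase. EdgeR called 0 genes of the cell type lists. The astrocyte score, with 7 of 9 genes higher in luteal libraries, ran from -0.53 to 0.34. GJA1, the astrocyte gap junction protein, averaged 32.8 ± 15.2 CPM in the follicular and 51.5 ± 15.4 CPM in the luteal phase. GFAP, the astrocyte filament protein, listed as LOC443220, averaged 3568 ± 421 CPM in the follicular and 2804 ± 783 CPM in the luteal phase. The summed astrocyte level was 4737 ± 388 CPM in the follicular and 4115 ± 856 CPM in the luteal phase, so score and sum averaged in opposite directions. The oligodendrocyte score, with 1 gene higher and 7 lower, ran from -0.70 to 0.41. MAL, a myelin protein listed as LOC101115527, averaged 27.7 ± 4.20 CPM in the follicular and 21.5 ± 5.33 CPM in the luteal phase, and MOBP, another listed as LOC101113800, 65.6 ± 15.5 CPM in the follicular and 51.6 ± 13.8 CPM in the luteal phase. The neuron score, with 4 genes higher and 4 lower, ran from -0.28 to 0.24. RBFOX3, the neuronal nuclear antigen, averaged 47.2 ± 6.98 CPM in the follicular and 34.6 ± 9.16 CPM in the luteal phase, and SYN1, a synaptic vesicle protein, 309 ± 34.3 CPM in the follicular and 259 ± 37.8 CPM in the luteal phase. HDC, on the ependymal list but better known as the enzyme of histamine neurons of the mammillary region, was at 27.6, 90.7, 5.04, 9.44 and 21.4 CPM in follicular and 6.22, 2.98, 12.7, 5.01 and 16.6 CPM in luteal libraries, with follicular 2 far above the rest.

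**Figure D4:**
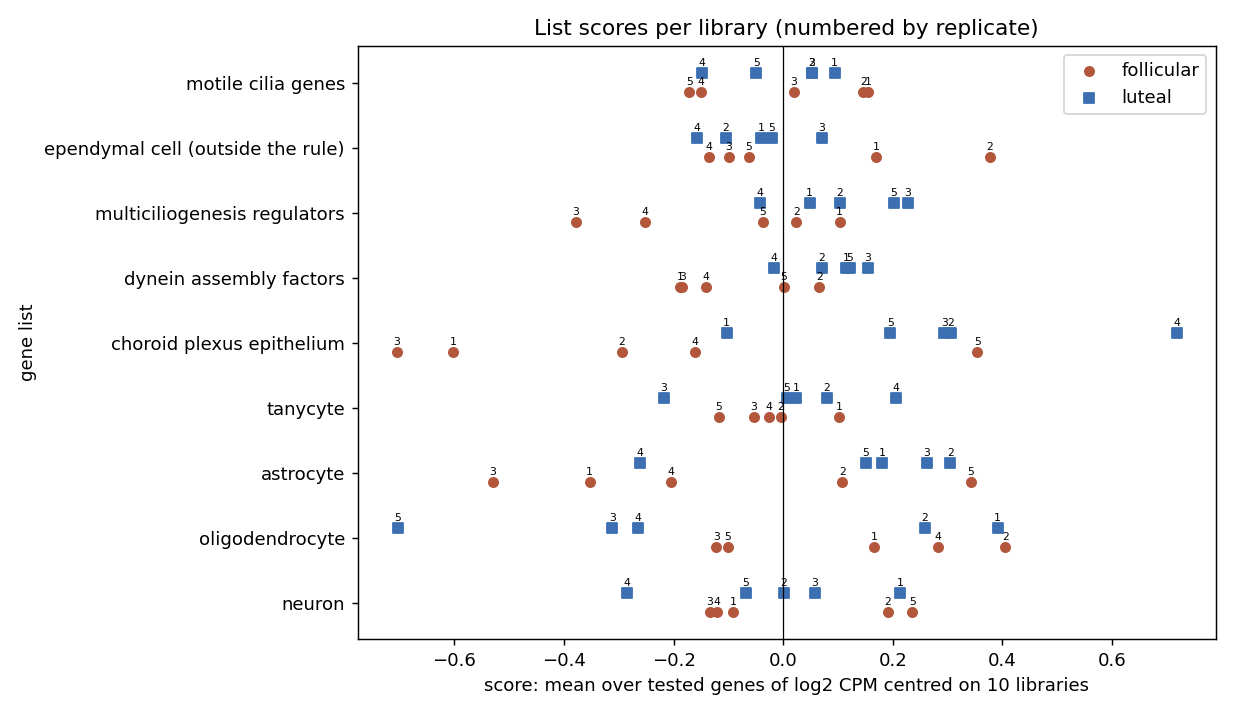
Score per library (x axis, the mean over tested genes of log2 CPM centred on 10 libraries) for the motile cilia genes and 8 other lists (y axis), with follicular libraries as circles and luteal libraries as squares, numbered by replicate. The motile cilia scores of both phases lie between -0.17 and 0.15, while the choroid plexus scores run from -0.71 to 0.72.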

How the data were processed

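Reads per gene were measured by RNA sequencing of mediobasal hypothalamus in 10 libraries, 5 per phase, each a mix of RNA of 2 ewes. Per the labels' protocols, TriReagent extraction was followed by a TruSeq stranded mRNA kit. Tools listed without a role in the submitters' processing notes are featureCounts 2.0.0, SAMtools 1.9, TopHat2 2.1.1, FastQC, Bowtie2 2.3.5.1 and bcl2fastq 2.20. The genome build, strand setting and handling of shared reads are not given in the sources used here, so counts are uncertain where genes on opposite strands overlap.

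The authors deposited whole-number counts for 33775 genes, not normalised. Symbols came from the count table. Its numeric identifiers were looked up in RefSeq genes of ARS-UI_Ramb_v3.0, where 31873 were found; that table served for names alone. In R 4.3.3, counts were filtered with filterByExpr (minimum count 10, minimum total 15), scaled by TMM and tested with the two-sided quasi-likelihood F-test of edgeR 4.0.16 on all 10 libraries, with phase as the single term. The standard error is the fold change divided by the root of F, and intervals use it with edgeR's degrees of freedom. For scores, a prior count of 2 entered log2 CPM. DESeq2 1.42.0 and limma-voom 3.58.1 were alternatives. The closing section gives the effect of these, of other scalings and filters, of the replicate number as a term and of leaving out libraries. The tests were checked on simulated counts. All 45 pairs of libraries differed by more than sampling noise (chi-square per degree of freedom at least 12.8), so 10 were counted.

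Members, lists and tests were chosen with earlier results of these data known, so no p is given for a list. Named genes were the 3 single members, the 3 with the highest CPM of each class, those below the filter, the 4 with the smallest p in each direction, the 4 most and 4 least variable above 1 CPM, and 2 per other list by smallest p. Others were named after their values were seen: DNAH5, DNAH7, DNAH11, DNAI2, RSPH4A, RSPH6A, MIA, TTR, AKAP4, the other genes set beside the members as ependymal or sperm genes, the members listed by library pattern and list genes with few reads. A gene of the tanycyte list that this rule takes is not reported here.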

Additional observations from a re-analysis of the deposited data

Results flagged for a closer look

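Extreme libraries within a phase were sought in 102 groups of 5 libraries, for named members and list scores. The criterion was a distance from the next value above 0.71 of the phase's range, Dixon's 95% limit for 5 samples. It was met 8 times, where chance gives about 1 in 20, or 5.1, for groups that are independent and not picked by their spread. Some named members were picked by their variation in these same libraries, and some lists share genes. The 5.1 is therefore not a strict expectation here. Follicular 1 stood above its phase in CFAP57, at 6.71 CPM against at most 3.37 CPM. Follicular 5 stood below it in CFAP20, at 55.3 CPM against at least 69.7 CPM. Luteal 3 stood above its phase in TEKT3, at 6.70 CPM against at most 5.59 CPM. Luteal 4 accounted for the other 5. It was lowest of its phase in CFAP126 at 13.7 CPM against at least 15.3 CPM, and highest in RSPH3 at 13.9 CPM against at most 12.1 CPM. Its DNAH score was -0.27 against at least 0.05 in the other luteal libraries. Its central apparatus score was -0.15 against at least 0.05, and its astrocyte score -0.26 against at least 0.15.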

How the results depend on the processing

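In every setting 0 members passed adjustment, and the median log2 fold change of the members ran from -0.03 to 0.07 with 1 library left out. Over all genes 29 were called by DESeq2, and 0 to 1 with 1 library left out, the 1 being without luteal 4. Members with an unadjusted p under 0.05 numbered 4; they were 7 with DESeq2 (14% of all genes), 8 with the replicate block (24.7%), 2 without follicular 1 and 3 and 2 without 6 broadly used genes (CFAP20, CFAP36, CFAP97, CFAP298, CFAP410 and CFAP418). With 1 library left out they were 3 to 15, the 15 being without follicular 5. Whether replicate numbers pair the libraries was not settled. Same-numbered libraries' deviations correlated at -0.33 to 0.63, 3 of 5 over 0.1, and 4 of 10 libraries correlated best with their own number. The largest correlation between phases, 0.63, was that of follicular 5 and luteal 5, and the smallest same-numbered one, -0.33, that of follicular 3 and luteal 3. Sign changes concerned genes with no call. With the first principal component as a term, log2 fold changes were 0.023 for CCDC153, 0.062 for TEKT1, 0.12 for CFAP46, 0.45 for TEKT4, -0.00665 for CFAP251 and 0.19 for RARRES2. Without follicular 1 and 3 they were 0.063 for CFAP57, 0.00585 for TEKT1, 0.067 for CFAP46 and 0.13 for TEKT4. With 1 library left out they ran from -0.37 to 0.043 for CFAP57, -0.031 to 0.095 for DNAH1, -0.073 to 0.16 for DNAH6, -0.044 to 0.069 for DNAH9, -0.25 to 0.076 for DNAI3, -0.050 to 0.17 for DNAI7, -0.086 to 0.18 for FOXJ1 and -0.31 to 0.10 for TEKT4. The cause was not tested. The component, the loss of follicular 1 and 3 and the 6 genes were settings added after seeing the data. The component was drawn from the same counts and overlaps with phase, so its use as a term can remove part of a phase difference. The promoter comparison was not run.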

Other observations

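RefSeq's names for ARS-UI_Ramb_v3.0 give 11 more genes of the count table a name that the rule would take. They are CFAP68, CFAP90, CFAP95, CFAP96, CFAP107, CFAP119, CFAP141, CFAP144, CFAP210, CFAP276 and RSPH10B, and all 11 passed the filter. Of these 3 averaged higher and 8 lower in luteal libraries, with a median log2 fold change of -0.20, and edgeR called 0. CFAP90, listed as C16H5orf49 in the count table, averaged 27.9 ± 11.3 CPM in the follicular and 19.5 ± 7.22 CPM in the luteal phase (SD, n = 5 per phase). CFAP276, a microtubule inner protein listed as C1H1orf194, averaged 16.5 ± 5.15 and 12.9 ± 3.40 CPM, and CFAP144, listed as FAM183A, 3.82 ± 1.99 and 2.32 ± 0.867 CPM. With these genes added, 35 of 73 tested genes averaged higher and 38 lower, and the median log2 fold change was -0.01.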
